A study of Drosophila melanogaster with 6 samples.

Results

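The aminoacyl-tRNA synthetase genes of Drosophila melanogaster were followed in the indirect flight muscle (IFM) of pupae after muscle-specific knockdown of 2 splicing factors. Genes were taken by name, as those whose FlyBase symbol joins a three-letter amino acid name to RS or RS-m, where -m marks the mitochondrial enzyme. This gave 35 genes, 20 cytosolic and 15 mitochondrial. Of these, 33 (18 cytosolic and 15 mitochondrial) had exon-bin counts, among 16428 genes with such counts in all. An exon bin is a piece of a gene's exons that none of its transcripts cuts further, and the bins of a gene were summed. AspRS and HisRS had no exon bins here and were read only from the counts per gene.

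IFM was dissected at 72 h after puparium formation (APF) from flies kept at 27 °C, and poly A-selected mRNA was sequenced in 2 libraries per group. SF1-IR flies carried Mef2-Gal4 with the SF1 hairpin GD5176, and Hrb87F-IR flies carried Mef2-Gal4 with the Hrb87F hairpin TRiP.JF01757. The WT control carried Mef2-Gal4 over a wild-type chromosome, so the driver was common to all 3 groups while a hairpin was not. Mef2-Gal4 is active in all muscle, each gene was targeted by a single hairpin, and each library pooled many flies, so that the 2 libraries of a group show the spread between pools. Nothing in the labels says that these pools came from separate crosses, and the p-values below measure only the spread between these libraries. Both comparisons with WT use the same 2 WT libraries.

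Synthetases attach each amino acid to its own tRNA, the step that supplies charged tRNA to the ribosome. Most amino acids have one nuclear gene for the cytosolic enzyme and another for the enzyme imported into mitochondria, and the enzymes fall into class I and class II by the fold of their catalytic domain. Flight muscle is packed with mitochondria, and it assembles its sarcomeres during pupal life, so that both sets of enzymes are in use. SF1 binds the branch point of introns early in spliceosome assembly, and Hrb87F is an hnRNP A-type RNA-binding protein.

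The SF1-IR libraries held 63393347 and 69067897 exon-bin counts, the Hrb87F-IR libraries 67402133 and 69600960, and the WT libraries 72057010 and 64380951. The targeted gene itself was checked first. SF1 was at 25.6 and 19.3 CPM (counts scaled to a common library total, with TMM factors) in SF1-IR, against 24.6 and 29.9 CPM in WT, a difference that did not pass the test (log2 fold change -0.28 ± 0.17 SE, edgeR adjusted p = 0.473). Hrb87F was at 14.8 and 18.1 CPM in Hrb87F-IR, against 29.8 and 30.5 CPM in WT (-0.87 ± 0.13, edgeR adjusted p = 0.0347). Of the 2 hairpin targets only Hrb87F was lower at 0.05, and the SF1-IR and WT libraries overlapped for SF1. Flight muscle markers (6 genes, among them Act88F and Mhc) had the largest sum of the tissue marker lists in every library. They came to 123400 and 124220 CPM in SF1-IR and 121020 and 106980 CPM in Hrb87F-IR, against 168480 and 189970 CPM in WT. In bulk tissue, fewer muscle cells and less RNA per muscle cell cannot be told apart. Summed testis markers (7 genes) came to 4.24 and 47.5 CPM in SF1-IR and 2.63 and 11.9 CPM in Hrb87F-IR, against 58.4 and 2.41 CPM in WT, so that 1 library of each group held more of this RNA than its partner. The neuron list (4 genes measured) summed to 416.2 and 329.8 CPM in SF1-IR and 391.5 and 398.3 CPM in Hrb87F-IR, against 296.4 and 307.6 CPM in WT, with no gene past an adjusted p of 0.05. The fat body list (5 genes measured) summed to 179.9 and 202.7 CPM in SF1-IR and 127.9 and 122.1 CPM in Hrb87F-IR, against 167.0 and 177.0 CPM in WT, with 1 gene lower at 0.05 in Hrb87F-IR. The trachea list (2 genes measured, Gasp and verm) summed to 591.2 and 510.8 CPM in SF1-IR and 685.5 and 664.3 CPM in Hrb87F-IR, against 411.4 and 556.3 CPM in WT, so that both Hrb87F-IR libraries lay above WT, with neither gene past 0.05. The part of these RNAs in the results below was not tested, apart from the values without single libraries given beside them.

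All 33 synthetase genes with exon bins passed the filter on low counts, so none was lost. To compare levels between genes, CPM were divided by the summed bin length. On this scale the mitochondrial genes ran in WT between 1.69 CPM per kb (GluRS-m) and 53.4 CPM per kb (PheRS-m), with a median of 7.74 CPM per kb. The cytosolic genes spanned about the same range in WT, between 2.26 CPM per kb (MetRS) and 52.9 CPM per kb (GluProRS), with a median of 10.5 CPM per kb. The medians were 10.7 and 12.9 CPM per kb for the mitochondrial and cytosolic genes in SF1-IR, and 8.28 and 10.5 CPM per kb in Hrb87F-IR. A read that crosses a bin boundary counts in each bin it covers, so genes with many short bins read somewhat high on this scale.

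**Figure D1:**
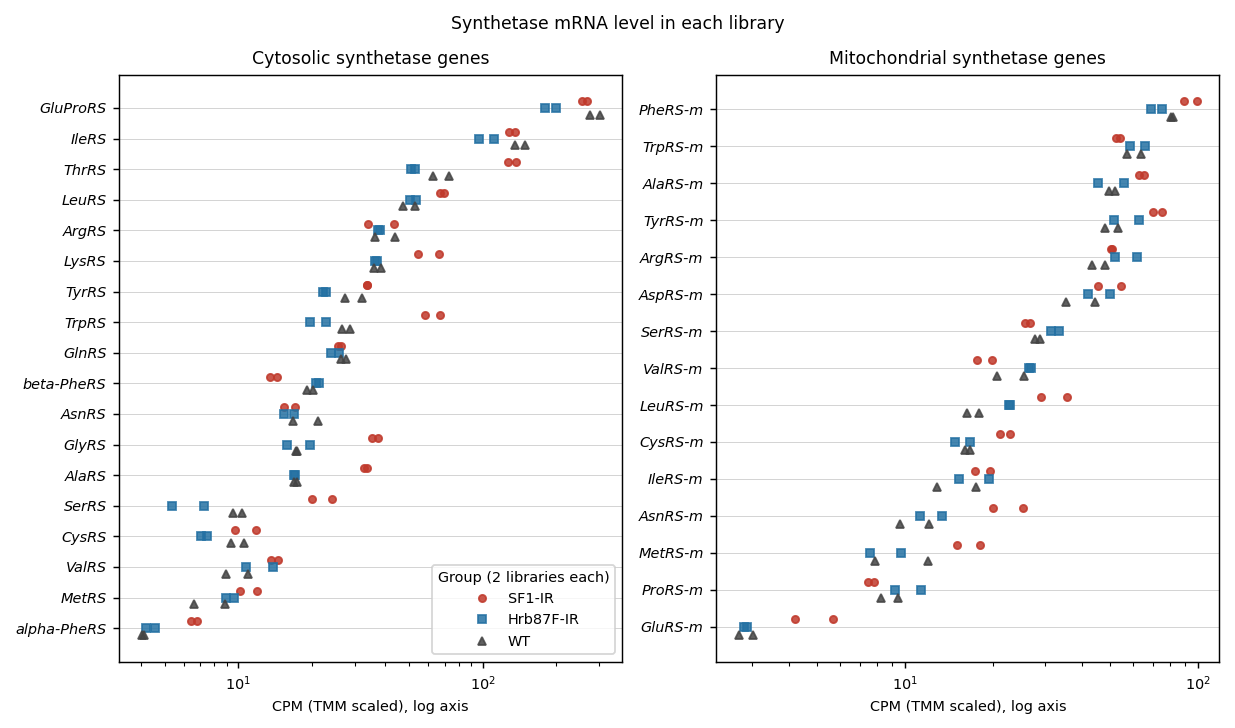
Level of each synthetase mRNA in every library, in CPM on a log axis, with the cytosolic genes on the left and the mitochondrial genes on the right, ordered by their WT mean. Each point is 1 library (2 per group). GluProRS stands at the top of the cytosolic panel in WT (275.6 and 300.8 CPM) and PheRS-m at the top of the mitochondrial panel (80.6 and 82.2 CPM).

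Among the 18 cytosolic genes with exon bins, which leave out AspRS and HisRS, a pair carried much of the total. GluProRS, which joins the glutamyl and prolyl enzymes in a single chain, and IleRS, the isoleucyl enzyme, together held 41.3% and 39.0% of the summed cytosolic CPM in SF1-IR, 46.3% and 43.7% of that sum in Hrb87F-IR, and 52.3% and 52.1% of it in WT. AspRS, absent from this sum, was also abundant by the counts per gene. For SF1-IR that source put it at 214.3 and 222.9 CPM, above IleRS at 127.1 and 121.3 CPM. For Hrb87F-IR it put AspRS at 93.2 and 85.6 CPM, below IleRS at 102.1 and 91.4 CPM. Set against its mitochondrial partner per length, GluProRS stood 9.06 times above ProRS-m and 31.4 times above GluRS-m in WT, and IleRS stood 6.98 times above IleRS-m. The phenylalanyl enzymes showed the opposite order. The cytosolic enzyme is built from alpha-PheRS and beta-PheRS subunits, while PheRS-m works as a single chain, and in WT alpha-PheRS reached 0.0451 and beta-PheRS 0.189 of the PheRS-m level per length.

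Over the 15 pairs of cytosolic and mitochondrial genes, the cytosolic gene was the higher one per length in all 6 libraries for 4 pairs (GluProRS with both its partners, IleRS and LeuRS). It was the lower one in all 6 libraries for 6 pairs (AlaRS, CysRS, TyrRS, ValRS and both PheRS subunits). The remaining 5 pairs changed order between libraries, ArgRS, AsnRS and SerRS among them only while the mitochondrial gene is read over all its bins. Of these, TrpRS stood at 1.73 times TrpRS-m in SF1-IR, against 0.506 times in Hrb87F-IR and 0.671 times in WT. Read over all bins, SerRS stood at 1.13 times SerRS-m in SF1-IR, against 0.259 times in Hrb87F-IR and 0.471 times in WT.

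**Figure D2:**
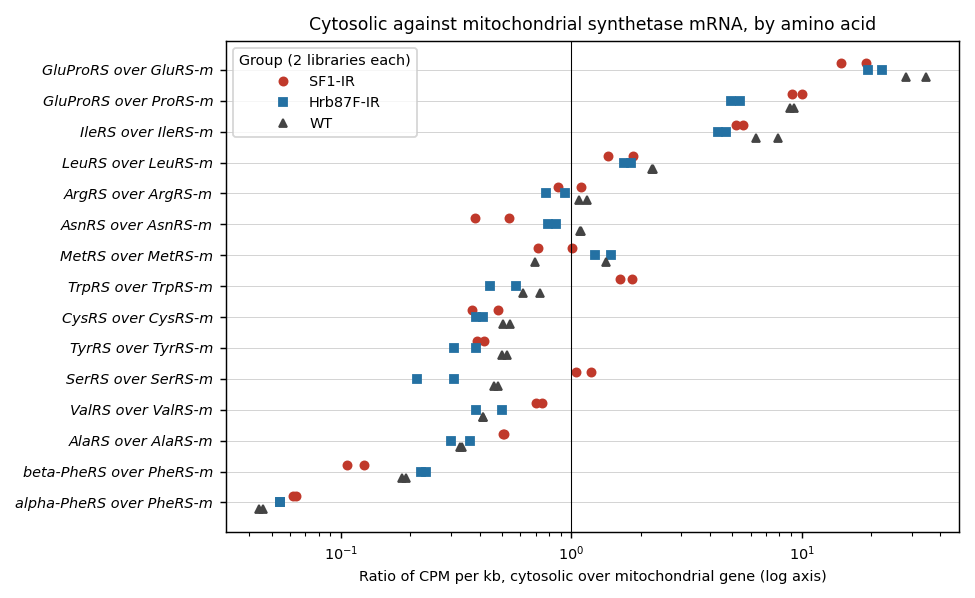
Ratio of the cytosolic to the mitochondrial gene for each amino acid, from CPM per kb, on a log axis; each point is 1 library and the vertical line marks equal levels. GluProRS and IleRS lie to the right in all 6 libraries and the PheRS subunits to the left. TrpRS and SerRS lie right of the line only in SF1-IR, SerRS only while SerRS-m is read over all its bins.

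Some of these levels rest on bins that other genes share. Bins on opposite strands that overlapped almost whole (at least 90%) had totals within 10% of each other in 29 of 32 cases, so the exon-bin counts did not separate the strands. Bins that share at least 1 base with an exon of another gene occurred in 14 of the 33 genes, 4 cytosolic and 10 mitochondrial, and the other bins are called clear. The shared stretch ran between 0.8% of a bin (AlaRS-m) and 98.0% (GluProRS). ArgRS-m had 87.4% of its counts in 2 bins that share 24.9% and 32.6% of their bases with mRpS9, a mitochondrial ribosomal protein gene. Over its clear bins ArgRS-m had only 3.01 CPM per kb in SF1-IR and 5.26 CPM per kb in Hrb87F-IR, against 4.30 CPM per kb in WT. ArgRS had 18.2 CPM per kb in SF1-IR and 17.7 CPM per kb in Hrb87F-IR, against 18.8 CPM per kb in WT, so over clear bins ArgRS was above ArgRS-m in each group. The counts per gene put ArgRS-m at 6.28 and 5.21 CPM in SF1-IR and 9.48 and 6.97 CPM in Hrb87F-IR, where the summed bins gave 50.7 and 50.3 CPM, and 62.1 and 52.0 CPM. The other 32 genes differed by less than 1.5 times between these sources, with a median ratio of 0.962 (counts per gene over summed bins).

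In SF1-IR, 4 cytosolic synthetase mRNAs rose at an adjusted p under 0.01 with edgeR, and no synthetase mRNA fell in that test. These were AlaRS, GlyRS, ThrRS and TrpRS, each at about 2 times its WT level. They are 4 of the 33 genes, against 2.68% of the 11753 genes tested that passed the same threshold in either direction. The tests were edgeR quasi-likelihood tests over all 6 libraries, with Benjamini-Hochberg adjustment over all genes tested. DESeq2 called 11 of the 33 at the same threshold, these 4 among them, where it called 9.77% of all genes. Of its 11, beta-PheRS was lower and the other 10 higher.

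TrpRS, the tryptophanyl enzyme and the one class I gene of the 4 (chromosome 3R, 9265027 to 9266904, minus strand, BDGP6.22), had 58.1 and 67.0 CPM in SF1-IR, against 26.6 and 28.6 CPM in WT (log2 fold change 1.18 ± 0.13 SE, edgeR adjusted p = 0.00405). GlyRS (3L, 15095142 to 15097686, plus strand) had 37.2 and 35.3 CPM in SF1-IR, against 17.5 and 17.2 CPM in WT (1.06 ± 0.13, edgeR adjusted p = 0.00639). ThrRS (2L, 12103751 to 12107170, plus strand) had 127.7 and 136.6 CPM in SF1-IR, against 63.0 and 73.0 CPM in WT (0.96 ± 0.11, edgeR adjusted p = 0.00503). GlyRS and ThrRS have no -m gene in the list, and in human cells the glycyl enzyme of both compartments comes from a single gene. AlaRS (2L, 8378262 to 8381764, minus strand) had 32.6 and 33.8 CPM in SF1-IR, against 16.97 and 17.37 CPM in WT (0.95 ± 0.10, edgeR adjusted p = 0.00396). In all 4 genes both SF1-IR libraries lay above both WT libraries, and replicates differed far less than groups.

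These 4 calls did not hold when 1 library was left out. Without any 1 of the 6, whether of SF1-IR, WT or Hrb87F-IR, no synthetase gene passed 0.01. The fold changes themselves moved little. Across those fits TrpRS kept a log2 fold change of 1.07 to 1.29 (edgeR adjusted p 0.0146 to 0.0262), and AlaRS one of 0.93 to 1.03 (0.0173 to 0.0322). ThrRS ranged over 0.85 to 1.13 (0.0187 to 0.0383) and GlyRS over 1.02 to 1.12 (0.0159 to 0.053). Without WT replicate 1 and SF1-IR replicate 2, the libraries with the most testis marker RNA, the same 4 genes and 2 more were called (6 in all), in a fit that takes the spread of the lone libraries from Hrb87F-IR.

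At an adjusted p under 0.05, 9 of the 33 genes were higher in SF1-IR and none was lower, where 2.76% of all genes tested were higher and 4.7% lower. The cytosolic additions were SerRS, LysRS and LeuRS. SerRS, the seryl enzyme (2L, 3035493 to 3037403, minus strand), had 20.1 and 24.3 CPM in SF1-IR, against 9.55 and 10.4 CPM in WT (1.16 ± 0.19, edgeR adjusted p = 0.0176). Both bins of SerRS overlap CG17260 on the other strand, over 1.92% and 5.71% of their bases. LysRS, whose human counterpart also supplies the mitochondrial enzyme, had 54.6 and 66.4 CPM in SF1-IR, against 36.1 and 38.4 CPM in WT (0.70 ± 0.12, edgeR adjusted p = 0.02). LeuRS had 67.1 and 69.8 CPM in SF1-IR, against 47.4 and 52.7 CPM in WT (0.45 ± 0.10, edgeR adjusted p = 0.0499). The LeuRS call thus lies at the very edge of the threshold. Without 1 library the log2 fold change ran over 0.37 to 0.59 for LeuRS. It ran over 0.55 to 0.83 for LysRS and 1.01 to 1.29 for SerRS.

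Not every cytosolic gene was higher. In human cells ArgRS, AspRS, GlnRS, GluProRS, IleRS, LeuRS, LysRS and MetRS sit together in the multisynthetase complex. The 7 of these with exon bins had a median log2 fold change of -0.05 in SF1-IR, against 0.69 for the 11 cytosolic genes outside the complex and -0.02 for all genes tested. The 7 were split, so that this median does not describe them all. LysRS (0.70), MetRS (0.52) and LeuRS (0.45) were positive, and the other 4 lay between -0.14 and -0.05. LysRS and LeuRS are among the genes higher at 0.05. No WT value is given for AspRS. GluProRS had 268.2 and 255.2 CPM in SF1-IR, against 275.6 and 300.8 CPM in WT (-0.14 ± 0.10, edgeR adjusted p = 0.602). IleRS had 135.7 and 128.8 CPM in SF1-IR, against 136.0 and 148.9 CPM in WT (-0.11 ± 0.11, edgeR adjusted p = 0.775). For neither did the difference pass the test, and for IleRS the groups differed by less than the WT libraries did.

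By catalytic class, the median log2 fold change in SF1-IR was 0.83 over the 8 class II and 0.18 over the 9 class I cytosolic genes, with GluProRS holding both domains. The mitochondrial genes had the other order, at 0.27 over 6 class II and 0.43 over 9 class I genes. Class and complex overlap in the cytosol, since LysRS is class II, GluProRS holds both and the other complex genes with bins are class I. Of the cytosolic class II genes, 6 had a positive log2 fold change and 2, AsnRS and beta-PheRS, a negative one. The beta-PheRS subunit had 14.5 and 13.5 CPM in SF1-IR, against 19.1 and 20.3 CPM in WT (-0.50 ± 0.12, edgeR adjusted p = 0.0541). Its partner subunit alpha-PheRS lay on the other side, at 6.40 and 6.80 CPM in SF1-IR, against 4.12 and 4.05 CPM in WT (0.69 ± 0.18, edgeR adjusted p = 0.076). Neither subunit passed 0.05 with edgeR. The SF1-IR and WT libraries did not overlap for either, where 22.5% of all genes tested were higher and 22.7% lower without overlap. DESeq2 called beta-PheRS lower in SF1-IR (-0.49, DESeq2 adjusted p = 0.00686). AsnRS, the asparaginyl enzyme, had 15.4 and 17.1 CPM in SF1-IR, against 16.7 and 21.3 CPM in WT, which overlap (-0.22). MetRS, which also charges the initiator tRNA, had 12.0 and 10.2 CPM in SF1-IR, against 8.82 and 6.57 CPM in WT (0.52 ± 0.20, edgeR adjusted p = 0.206). TyrRS had 33.7 and 33.8 CPM in SF1-IR, against 27.4 and 32.2 CPM in WT (0.18 ± 0.11, edgeR adjusted p = 0.52).

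With edgeR no mitochondrial gene passed 0.01 in SF1-IR, where 2.68% of all genes tested did. At 0.05, 2 of 15 passed, both higher, where 2.76% of all genes tested were higher and 4.7% lower. DESeq2 called these 2, LeuRS-m and AsnRS-m, and also TyrRS-m as higher at 0.01, where it called 9.77% of all genes. LeuRS-m had 35.7 and 29.0 CPM in SF1-IR, against 16.3 and 17.9 CPM in WT (0.92 ± 0.14, edgeR adjusted p = 0.0106). AsnRS-m had 25.3 and 19.9 CPM in SF1-IR, against 9.55 and 12.1 CPM in WT (1.06 ± 0.19, edgeR adjusted p = 0.0219). Without 1 library the log2 fold change ran over 0.76 to 1.06 for LeuRS-m and 0.88 to 1.31 for AsnRS-m. LeuRS-m shares no bin with another gene, but 67.2% of the AsnRS-m counts lay in a bin that shares 3.23% of its bases with NiPp1. Over its clear bins, 336 of 1482 bases, AsnRS-m gave 8.89 and 6.31 CPM in SF1-IR, against 4.58 and 4.93 CPM in WT (log2 fold change 0.68, edgeR adjusted p = 0.159), and the call at 0.05 was lost on this shorter stretch.

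Among the mitochondrial genes named for their level or their partner, none passed 0.05 with edgeR. PheRS-m had 89.8 and 98.9 CPM in SF1-IR, against 80.6 and 82.2 CPM in WT (0.21 ± 0.10, edgeR adjusted p = 0.339). TyrRS-m had 70.1 and 75.3 CPM in SF1-IR, against 47.9 and 53.1 CPM in WT (0.52 ± 0.13, edgeR adjusted p = 0.0634, DESeq2 adjusted p = 0.00778). AlaRS-m had 62.7 and 65.5 CPM in SF1-IR, against 49.7 and 52.0 CPM in WT (0.33 ± 0.12, edgeR adjusted p = 0.197). In each of the 3 both SF1-IR libraries were above both WT libraries, which held for 22.5% of all genes tested. TrpRS-m lay the other way from its cytosolic partner, at 52.6 and 54.0 CPM in SF1-IR, against 63.7 and 57.4 CPM in WT (-0.19 ± 0.11, edgeR adjusted p = 0.461). SerRS-m had 25.6 and 26.8 CPM in SF1-IR, against 27.7 and 28.8 CPM in WT (-0.11 ± 0.10, edgeR adjusted p = 0.709). ProRS-m had 7.46 and 7.83 CPM in SF1-IR, against 8.26 and 9.44 CPM in WT.

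The scarce mitochondrial genes were the noisier ones. GluRS-m had 5.64 and 4.20 CPM in SF1-IR, against 3.02 and 2.71 CPM in WT (0.78 ± 0.25, edgeR adjusted p = 0.136). MetRS-m had 15.0 and 18.0 CPM in SF1-IR, against 7.87 and 11.9 CPM in WT (0.74 ± 0.24, edgeR adjusted p = 0.148). IleRS-m had 19.4 and 17.2 CPM in SF1-IR, against 12.9 and 17.5 CPM in WT, which overlap. Their standard errors were about 2 times those of PheRS-m or AlaRS, and differences of this size were not resolved with 2 libraries per group.

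Over both compartments, the SF1-IR and WT libraries did not overlap for 29 of the 33 genes. SF1-IR was higher in 21 of them, or 63.6%, and lower in 8, where 22.5% of all genes tested were higher and 22.7% lower without overlap. The median log2 fold change was 0.48 for the 18 cytosolic genes and 0.33 for the 15 mitochondrial genes, beside -0.02 for all genes tested. Without WT replicate 1 the mitochondrial median was 0.20. The pooled SD of such a median between replicate libraries was 0.0486 for the cytosolic and 0.0954 for the mitochondrial genes on the log2 scale.

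**Figure D3:**
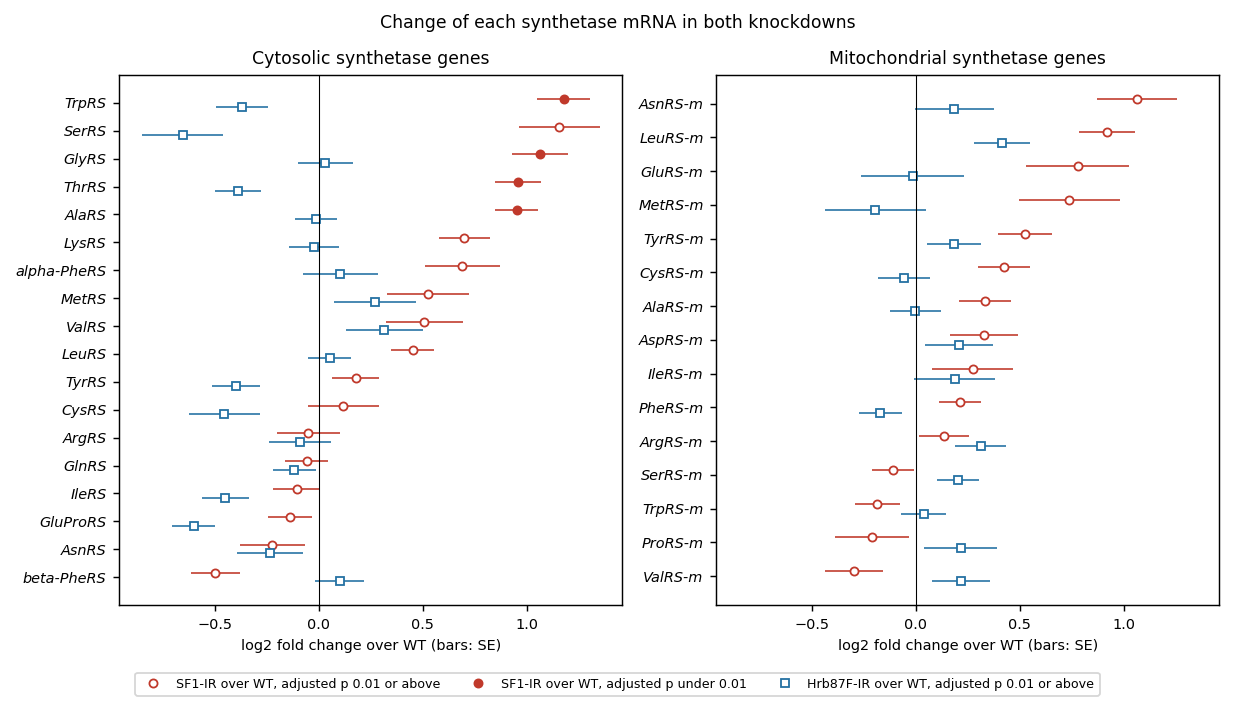
Log2 fold change over WT of each synthetase mRNA in SF1-IR (circles) and Hrb87F-IR (squares), with bars for the standard error, cytosolic genes on the left and mitochondrial genes on the right. Filled points mark an adjusted p under 0.01, reached by TrpRS, GlyRS, ThrRS and AlaRS in SF1-IR and by no gene in Hrb87F-IR; both comparisons share the 2 WT libraries.

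In Hrb87F-IR, no synthetase mRNA changed at an adjusted p under 0.01 with edgeR, where 0.0596% of all genes tested did. At an unadjusted p under 0.05 the count was 9 of 33, where 15.2% of all genes tested passed. DESeq2 called 2 of the 33 at 0.01 (GluProRS and IleRS, both lower), where it called 6% of all genes, so its share is near that background. At an adjusted p under 0.05, edgeR put GluProRS lower and no synthetase gene higher, where 1.25% of all genes tested were lower and 0.519% higher. GluProRS had 200.2 and 179.4 CPM in Hrb87F-IR, against 275.6 and 300.8 CPM in WT (-0.60 ± 0.11, edgeR adjusted p = 0.0481). Without 1 library its adjusted p ran between 0.0509 and 0.465, so the call at 0.05 was lost in each of the 6 fits, while the log2 fold change stayed between -0.69 and -0.52. Over its clear bins the log2 fold change was -0.60 (edgeR adjusted p = 0.0581).

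IleRS was also abundant among the cytosolic genes with exon bins. It had 111.7 and 96.8 CPM in Hrb87F-IR, against 136.0 and 148.9 CPM in WT (-0.45 ± 0.11, edgeR adjusted p = 0.122). SerRS had 5.36 and 7.29 CPM in Hrb87F-IR, against 9.55 and 10.4 CPM in WT (-0.66 ± 0.19, edgeR adjusted p = 0.178). The libraries did not overlap for either gene, although neither passed the test, and 21.1% of all genes tested were lower without overlap. ThrRS had 51.2 and 52.7 CPM in Hrb87F-IR, against 63.0 and 73.0 CPM in WT (-0.39 ± 0.11, edgeR adjusted p = 0.162). TrpRS had 19.8 and 23.0 CPM in Hrb87F-IR, against 26.6 and 28.6 CPM in WT (-0.37 ± 0.13, edgeR adjusted p = 0.231). TyrRS had 22.3 and 22.9 CPM in Hrb87F-IR, against 27.4 and 32.2 CPM in WT (-0.40 ± 0.12, edgeR adjusted p = 0.166). By contrast AlaRS, at 17.03 and 16.96 CPM in Hrb87F-IR, lay on its WT libraries at 16.97 and 17.37 CPM (-0.01 ± 0.10, edgeR adjusted p = 0.963).

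Across the 18 cytosolic genes, Hrb87F-IR lay below WT without overlap in 8 and above in 3. Across the 15 mitochondrial genes it lay below in 1 and above in 4. Over all genes tested, these shares were 21.1% below and 24.2% above. The median log2 fold changes were -0.10 for the cytosolic and 0.18 for the mitochondrial genes, beside -0.03 for all genes tested. The cytosolic median was -0.0024 without WT replicate 2, -0.19 without WT replicate 1 and -0.16 without Hrb87F-IR replicate 1. The mitochondrial median was 0.03 without Hrb87F-IR replicate 1, 0.07 without WT replicate 1 and 0.28 without WT replicate 2. LeuRS-m was the mitochondrial gene farthest above WT, with 22.7 and 22.8 CPM in Hrb87F-IR, against 16.3 and 17.9 CPM in WT (0.41 ± 0.13, edgeR adjusted p = 0.213).

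The ratio of the cytosolic to the mitochondrial total summed these small differences. It was 1.28 and 1.36 in Hrb87F-IR and 1.77 and 1.77 in SF1-IR, against 1.77 and 1.80 in WT. The cytosolic total leaves out AspRS and HisRS, which had no exon bins and for which no WT value is given. By the counts per gene AspRS had 214.3 and 222.9 CPM in SF1-IR, against 93.2 and 85.6 CPM in Hrb87F-IR. The ratio over all 20 cytosolic genes is thus not known. Over bins clear of other genes the ratio was 1.46 and 1.57 in Hrb87F-IR and 2.01 and 1.99 in SF1-IR, against 1.96 and 2.02 in WT. An exact two-sided permutation test of 2 libraries against 2 cannot go below p = 0.333, so the ratio is given without a test. Among the cytosolic genes with exon bins, GluProRS and IleRS made up most of the shortfall in Hrb87F-IR. The other 16 summed to 361.9 and 355.7 CPM there, against 375.7 and 414.1 CPM in WT. In SF1-IR the same 16 genes summed to 573.8 and 599.5 CPM.

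Setting the knockdowns against each other tested whether their effects on a gene differed. Here 5 cytosolic genes were higher in SF1-IR than in Hrb87F-IR at an adjusted p under 0.01 and none was lower, where 2.13% of all genes tested passed in either direction. DESeq2 called these 5 and 8 more (13 of the 33, with beta-PheRS lower), where it called 9.46% of all genes. SerRS, at 20.1 and 24.3 CPM in SF1-IR, against 5.36 and 7.29 CPM in Hrb87F-IR, differed most (log2 fold change 1.81 ± 0.20, edgeR adjusted p = 0.00436). TrpRS differed by 1.55 ± 0.13 (edgeR adjusted p = 0.00173) and ThrRS by 1.35 ± 0.11 (edgeR adjusted p = 0.00175). GlyRS, at 37.2 and 35.3 CPM in SF1-IR, against 19.7 and 15.8 CPM in Hrb87F-IR, differed by 1.03 ± 0.13 (edgeR adjusted p = 0.00831). AlaRS differed by 0.97 ± 0.10 (edgeR adjusted p = 0.00392). For none of the 5 did a library of one knockdown reach the range of the other.

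Leaving out 1 library lowered the number of calls here as well, although not for every library. It was 5 without WT replicate 1, 4 without WT replicate 2, 1 without SF1-IR replicate 1 (TrpRS), 2 without SF1-IR replicate 2 (ThrRS and TrpRS), and 0 without either Hrb87F-IR library. The counts per gene of the 4 knockdown libraries, a separate count of the same reads, called the same 5 genes and gave SerRS a log2 fold change of 1.87 (edgeR adjusted p = 0.00357). There SerRS had 23.9 and 29.0 CPM in SF1-IR, against 6.09 and 8.32 CPM in Hrb87F-IR.

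That source also held the 2 cytosolic genes without exon bins. AspRS, the aspartyl enzyme, had 214.3 and 222.9 CPM in SF1-IR, against 93.2 and 85.6 CPM in Hrb87F-IR (1.29 ± 0.11, edgeR adjusted p = 0.00188). HisRS had 20.9 and 24.4 CPM in SF1-IR, against 12.98 and 16.02 CPM in Hrb87F-IR (0.64 ± 0.15, edgeR adjusted p = 0.0584). In this fit 2.39% of 10027 genes passed 0.01, and AspRS belonged to them while HisRS did not. Exons of AspRS overlap asRNA:CR43468 on the same strand and Nmda1 and asRNA:CR45141 on the other. Those of HisRS overlap Bx on the same strand. Without exon bins, AspRS and HisRS have no value over clear bins. No WT value is given for either gene, because the WT columns of the counts per gene did not follow the WT exon bins. The log2 ratio between the sources had an SD across 6602 genes of 0.977 and 1.21 in WT, against 0.297 to 0.303 in the knockdowns.

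At an adjusted p under 0.05, the direct contrast added LysRS, TyrRS and AsnRS-m as higher and beta-PheRS as lower in SF1-IR, where 3.02% of all genes tested were higher and 3.84% lower. LysRS had 54.6 and 66.4 CPM in SF1-IR, against 36.4 and 36.9 CPM in Hrb87F-IR (0.72 ± 0.12, edgeR adjusted p = 0.0201). TyrRS had 33.7 and 33.8 CPM in SF1-IR, against 22.3 and 22.9 CPM in Hrb87F-IR (0.57 ± 0.12, edgeR adjusted p = 0.0345). The beta-PheRS subunit had 14.5 and 13.5 CPM in SF1-IR, against 21.5 and 20.8 CPM in Hrb87F-IR (-0.60 ± 0.12, edgeR adjusted p = 0.0319). It was the single cytosolic gene of 18 with a negative log2 fold change in this contrast. AsnRS-m had 25.3 and 19.9 CPM in SF1-IR, against 13.3 and 11.2 CPM in Hrb87F-IR (0.88 ± 0.19, edgeR adjusted p = 0.0439), and over its clear bins it differed by 0.92 with an adjusted p of 0.0723.

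GluProRS stood at 268.2 and 255.2 CPM in SF1-IR, against 200.2 and 179.4 CPM in Hrb87F-IR (0.46 ± 0.10, edgeR adjusted p = 0.0504). The median log2 fold change of SF1-IR over Hrb87F-IR was 0.52 for the cytosolic and 0.34 for the mitochondrial genes, beside 0.04 for all genes tested. Without Hrb87F-IR replicate 2 the mitochondrial median was 0.20. Libraries were higher in SF1-IR without overlap for 21 of the 33 genes and lower for 6, where the shares over all genes tested were 22.8% and 26%. The 6 lower genes were beta-PheRS and the mitochondrial ArgRS-m, ProRS-m, SerRS-m, TrpRS-m and ValRS-m. Over all bins, ValRS-m was the mitochondrial one farthest from 0 (-0.51 ± 0.14, edgeR adjusted p = 0.0856). Over clear bins ArgRS-m differed by -0.81 (edgeR adjusted p = 0.103). ProRS-m had 36.1% of its counts in a bin shared with CG1246. Over its clear bins it had 5.69 and 6.39 CPM in SF1-IR, against 7.63 and 5.62 CPM in Hrb87F-IR, which overlap (-0.13).

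The 8 genes named neither by their level, their test nor their partner did not pass 0.05 with edgeR in any comparison. They were the cytosolic ArgRS, CysRS, GlnRS and ValRS and the mitochondrial ArgRS-m, AspRS-m, CysRS-m and ValRS-m. Their log2 fold changes ran between -0.30 (ValRS-m) and 0.51 (ValRS) in SF1-IR over WT, and between -0.46 (CysRS) and 0.32 (ValRS) in Hrb87F-IR over WT. In SF1-IR over Hrb87F-IR they ran between -0.51 (ValRS-m) and 0.57 (CysRS, edgeR adjusted p = 0.116), with CysRS-m at 0.48 (edgeR adjusted p = 0.0767), which DESeq2 called at 0.01. Of the CysRS-m counts, 91.95% lay in bins shared with CG13016. Over its clear bins, 112 of 2108 bases, CysRS-m differed by 1.06 in this contrast (edgeR adjusted p = 0.315). The single bin of GlnRS shares 1.06% of its bases with CG11858 on the other strand.

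Use of single exon bins was tested to see whether the splicing of synthetase transcripts differed. Of the 169 bins of the 33 genes, 157 in 30 genes could be tested. In SF1-IR over WT, 1 bin changed in use at an unadjusted p under 0.01, or 0.637% of those tested, where 0.972% of all 53818 bins did. In Hrb87F-IR over WT none did, where 0.656% of all bins did. Neither of these shares stands above its background. In Hrb87F-IR over WT 4 synthetase bins had an unadjusted p under 0.05, where 2% of all bins did. At 0.01 limma's diffSplice called 5 synthetase bins in SF1-IR and 3 in Hrb87F-IR, where it called 1.69% and 1.52% of all bins in the same comparisons.

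The bin that changed was E003 of IleRS, 54 bases annotated as 5′-UTR (3L, 22288741 to 22288794, plus strand, BDGP6.22). One of 3 annotated IleRS transcripts keeps these bases in its first exon, and the other 2 splice them out as part of an intron that ends just upstream of the start codon. E003 took 3.07% and 2.698% of the IleRS counts in SF1-IR (292 and 274 counts) and 0.832% and 1.02% in Hrb87F-IR (61 and 72 counts), against 1.21% and 1.25% in WT (109 and 101 counts). Both SF1-IR libraries lay above the 4 others. Relative to the rest of the gene, E003 was used 1.23 ± 0.31 log2 units more in SF1-IR than in WT (edgeR diffSpliceDGE, unadjusted p = 0.00358, adjusted p = 0.548). In Hrb87F-IR over WT the difference was -0.41 ± 0.32 (unadjusted p = 0.34). The call was lost without WT replicate 2 or SF1-IR replicate 1, and it does not pass an adjustment over all bins.

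**Figure D4:**
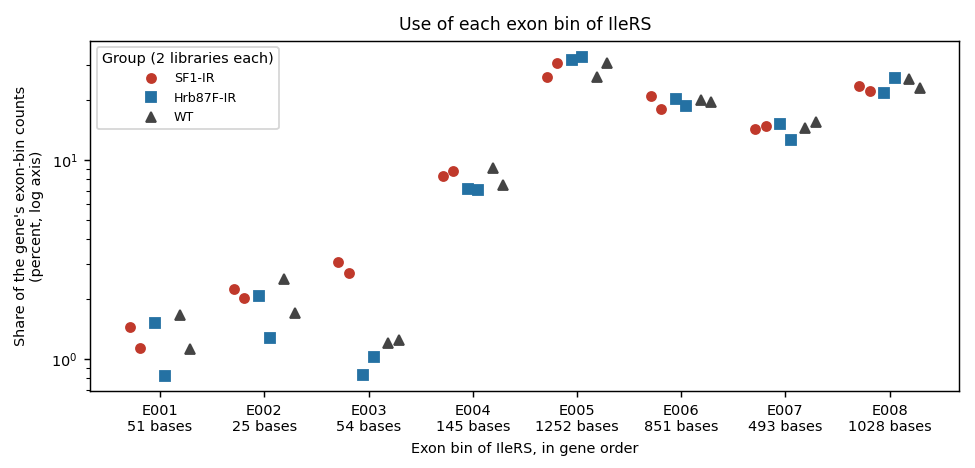
Share of the IleRS exon-bin counts in each of its 8 bins, in percent on a log axis, for every library. The 2 SF1-IR libraries stand apart at E003, at 3.07% and 2.698%, while the libraries of the 3 groups lie together at the long coding bins E005 to E008.

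Other bins that some transcripts of a gene keep and others splice out were few. Beside E003 of IleRS, such bins numbered 15 in 9 synthetase genes, of which 9 could be tested. In SF1-IR 6 of the 9 bins had a positive and 3 a negative difference from WT, and in Hrb87F-IR 5 and 4. In GlyRS, E003 had 111 and 119 counts in SF1-IR and 33 and 18 counts in Hrb87F-IR, against 22 and 17 in WT, a difference in use of 1.19 log2 units (unadjusted p = 0.0919) beyond that of the whole gene. In ThrRS, E002 had 1535 and 1519 counts in SF1-IR and 300 and 463 counts in Hrb87F-IR, against 463 and 478 in WT, a difference in use of 0.43 log2 units (unadjusted p = 0.0769). Neither passed 0.01.

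Genes that work beside the synthetases were read in the same fit. In the cytosol, AIMP proteins scaffold the multisynthetase complex, elongation factor 1 delivers charged tRNA to the ribosome, and Dtd removes D-amino acids from tRNA. Of the 9 genes measured (3 AIMP genes, 5 of elongation factor 1 and Dtd), none passed 0.01 in any comparison, and they centred on a log2 fold change of -0.31 in SF1-IR over WT and -0.20 in Hrb87F-IR over WT (medians). AIMP1 had 14.9 and 12.5 CPM in SF1-IR, against 21.4 and 20.5 CPM in WT (-0.61, edgeR adjusted p = 0.0462). The eEF1delta gene had 249.6 and 235.1 CPM in SF1-IR, against 354.0 and 330.0 CPM in WT (-0.50, edgeR adjusted p = 0.0261). These 2 were the genes of the list lower at 0.05 in SF1-IR over WT, where 4.7% of all genes tested were. In the direct contrast eEF1delta was again lower in SF1-IR (-0.57, edgeR adjusted p = 0.0185). AIMP3 lay the other way, with 25.6 and 33.6 CPM in SF1-IR, against 20.6 and 15.9 CPM in WT (0.70, edgeR adjusted p = 0.0797).

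Of 10 mitochondrial partners, none passed 0.05 in SF1-IR, and their median log2 fold change there was -0.04. In Hrb87F-IR 2 passed 0.05 as lower and 2 as higher, where 1.25% of all genes tested were lower and 0.519% higher. The mitochondrial elongation factor mEFTu1 had 280.1 and 248.6 CPM in Hrb87F-IR, against 560.7 and 619.8 CPM in WT (-1.16, edgeR adjusted p = 0.0209). GatA, a subunit of the amidotransferase that completes glutaminyl-tRNA in mitochondria, had 16.02 and 15.05 CPM in Hrb87F-IR, against 24.9 and 28.1 CPM in WT (-0.77, edgeR adjusted p = 0.0328). The higher ones act at the end of translation. The release factor mRF1 had 45.3 and 37.6 CPM in Hrb87F-IR, against 17.3 and 20.1 CPM in WT (1.15, edgeR adjusted p = 0.0209). The recycling factor mRRF1 had 19.8 and 18.1 CPM in Hrb87F-IR, against 9.60 and 8.83 CPM in WT (1.04, edgeR adjusted p = 0.0317). In the direct contrast GatA was higher (0.94, edgeR adjusted p = 0.00652) and mRF1 lower (-1.18, edgeR adjusted p = 0.00585) in SF1-IR at 0.01. At 0.05, mEFTu1 (0.94, edgeR adjusted p = 0.0136) and mEFTu2 (0.55, edgeR adjusted p = 0.0319) were higher and CG1750 lower (-1.002, edgeR adjusted p = 0.0252).

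The amino acid response couples uncharged tRNA, through the kinase Gcn2, to transcription of amino acid synthesis and stress genes, and in mammals synthetase genes are among its targets. Of 19 genes of a list for this response and related stress regulators, 2 rose and 2 fell in SF1-IR at 0.01, where 2.68% of all genes tested passed in either direction, and the median log2 fold change was 0.00. The listed crc, Psat and Sesn were not matched to exon-bin counts and are not among the 19. The measured genes moved in both directions. Gadd45, a growth arrest gene, had 65.2 and 53.3 CPM in SF1-IR, against 19.4 and 23.1 CPM in WT (1.48, edgeR adjusted p = 0.00373). Irbp18, a bZIP partner of Xrp1, had 26.8 and 27.2 CPM in SF1-IR, against 12.1 and 10.1 CPM in WT (1.29, edgeR adjusted p = 0.00394). The genes that fell act in translation control and amino acid synthesis. Thor, the translation inhibitor 4E-BP, had 96.4 and 79.5 CPM in SF1-IR, against 178.0 and 186.9 CPM in WT (-1.05, edgeR adjusted p = 0.00529). AsnS, which makes asparagine, had 6.08 and 7.05 CPM in SF1-IR, against 16.5 and 19.3 CPM in WT (-1.45, edgeR adjusted p = 0.00515).

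At 0.05, 3 further genes of this list were higher in SF1-IR, where 2.76% of all genes tested were. Gcn2 itself had 63.0 and 66.2 CPM in SF1-IR, against 35.9 and 44.2 CPM in WT (0.69, edgeR adjusted p = 0.0292). The pseudokinase gene trbl differed by 0.88 (edgeR adjusted p = 0.0219) and Gclc, of glutathione synthesis, by 0.62 (edgeR adjusted p = 0.0327). In Hrb87F-IR the median of the list was -0.32, and 1 gene fell at 0.01, where 0.0596% of all genes tested passed. Thor had 35.8 and 39.3 CPM in Hrb87F-IR, against 178.0 and 186.9 CPM in WT (-2.28, edgeR adjusted p = 0.00477). At 0.05, AsnS (-1.36, edgeR adjusted p = 0.0214) and Gadd45 (-1.33, edgeR adjusted p = 0.0205) were lower there too, beside 1.25% of all genes tested.

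In the direct contrast 3 genes of the list were higher in SF1-IR at 0.01 and none was lower, where 2.13% of all genes tested passed in either direction. Gadd45 differed most, at 65.2 and 53.3 CPM in SF1-IR, against 7.83 and 9.02 CPM in Hrb87F-IR (2.81, edgeR adjusted p = 0.000495). Irbp18 (1.44, edgeR adjusted p = 0.00293) and Thor (1.23, edgeR adjusted p = 0.00374) were the others. At 0.05, Xrp1 (0.75, edgeR adjusted p = 0.0217), Shmt (1.10, edgeR adjusted p = 0.0262) and Gclc (0.73, edgeR adjusted p = 0.0209) were higher as well, beside 3.02% of all genes tested. AsnS, whose product is the substrate of AsnRS and AsnRS-m, did not pass (-0.08, edgeR adjusted p = 0.858).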

How the data were processed

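The authors deposited raw counts per gene and per exon bin, made per the labels with STAR 2.7.3a, SAMtools 1.1 and featureCounts (Subread 2.0.0) on BDGP6, with 2 libraries each of SF1-IR, Hrb87F-IR and WT. The deposited positions of exon bins (start, end and width, other numbers than counts) are on BDGP6.22; 135 broken and 21 repeated position lines were left out. Their tables of fold changes and p-values were not used.

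Bins were summed per gene and tested with edgeR 4.0.16 (TMM, filterByExpr, robust glmQLFit, glmQLFTest; 11753 genes) in R 4.3.3, all 6 libraries in one fit, at a Benjamini-Hochberg adjusted p under 0.01, with 0.05 as a second threshold. Exon use was tested with diffSpliceDGE at an unadjusted p under 0.01. Both steps were tested on simulated data. Standard errors were worked back from each test, as the absolute log2 fold change over the square root of its F statistic. Other settings used DESeq2 1.42.0 and limma 3.58.1.

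Values per library are given for genes with an adjusted p under 0.05 in any comparison, the 3 highest and 3 lowest per length in WT, those with a changed bin, and their partners in the other compartment. Overlap with other genes came from the BDGP6.54 annotation, whose ends of all 33 genes equal those of the bins. Members and lists were chosen with earlier results of these data known.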

Additional observations from a re-analysis of the deposited data

How the results depend on the processing

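With 2 libraries per group, the number of synthetase genes past the threshold moved with most settings. In SF1-IR over WT the 4 genes called became 11 with DESeq2, 7 with no filter on low counts, 8 with at least 10 counts in every library, 9 at an adjusted p under 0.05, and 0 with only the 2 groups compared. In Hrb87F-IR over WT the 0 became 2 with DESeq2, and 1 with at least 10 counts in every library, at an adjusted p under 0.05, with the authors' counts per gene, or without the 2 libraries with the most testis marker RNA. In SF1-IR over Hrb87F-IR the 5 became 13 with DESeq2, 9 with at least 10 counts or at an adjusted p under 0.05, 8 without those 2 libraries, and 3 over bins clear of other genes, where SerRS has no bin left and GlyRS, whose bins are all clear, came to an adjusted p of 0.0101. Leaving out 1 library gave 0 in SF1-IR over WT, 0 in Hrb87F-IR over WT and 0 to 5 in SF1-IR over Hrb87F-IR.

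Replicate numbers were not taken to pair the libraries. The labels name no shared batch, and deviations of same-numbered libraries correlated at -0.74 (SF1-IR and WT), -0.502 (Hrb87F-IR and WT) and 0.414 (SF1-IR and Hrb87F-IR) across 11753 genes. With a replicate block the calls were 0 in SF1-IR over WT, 0 in Hrb87F-IR over WT and 1 (TrpRS) in SF1-IR over Hrb87F-IR, and the exon bins called stayed 1 and 0. With the WT numbers crossed, an option added after seeing the data, the calls were 8, 1 and 8, and the exon bins 2 and 2.

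The median of the cytosolic genes was 0.54 in SF1-IR over WT and 0.57 in SF1-IR over Hrb87F-IR with only the 2 groups compared. With the authors' counts per gene it was 0.24 in SF1-IR over WT, -0.34 in Hrb87F-IR over WT and 0.57 in SF1-IR over Hrb87F-IR. The WT columns of that source do not follow the exon bins, and in it IleRS was 1.88 higher in SF1-IR than in WT, a reversal. Without the 2 libraries with the most testis marker RNA, the cytosolic median was 0.34 in SF1-IR over WT and -0.19 in Hrb87F-IR over WT, and the mitochondrial median 0.0691 in Hrb87F-IR over WT. Leaving out 1 library gave cytosolic medians of 0.37 to 0.51 (SF1-IR over WT), -0.19 to -0.0024 (Hrb87F-IR over WT) and 0.43 to 0.58 (SF1-IR over Hrb87F-IR). The mitochondrial medians were then 0.20 to 0.46, 0.0263 to 0.28 and 0.20 to 0.44 in these comparisons.

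Exon bins called were 5 in SF1-IR and 3 in Hrb87F-IR with limma's diffSplice, 2 in Hrb87F-IR with at least 10 counts per bin, 0 in SF1-IR at an adjusted p under 0.05, and 0 to 2 in each knockdown without 1 library. RLE and upper quartile scaling changed no call count by over 1.5 times and moved the median of all genes by under 0.1 on the log2 scale. The median level per length was 10.6 CPM per kb in the knockdowns, and 10.1 with the counts per gene. The clear-bin sums and the removal of the testis-rich libraries were added after seeing the data. Of 1272 refitted fold changes of single genes, 1 was counted as reversed. That count leaves out changes of sign in genes that did not pass the test in either setting. Over clear bins, ProRS-m went from -0.21 to 0.07 and ArgRS-m from 0.14 to -0.51 in SF1-IR over WT. AsnRS-m went from 0.18 to -0.24 in Hrb87F-IR over WT. The causes of these differences were not tested.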
